A study of Mus musculus with 40 samples.

Results

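Histone deacetylases remove acetyl groups from lysines of histones and of other proteins, and so oppose the acetyltransferases that add them. The transcripts described here are those of the 10 genes, of 47643 Ensembl genes counted, whose identifiers carry the symbols Hdac1 to Hdac9 and Hdac11. The rule takes them by name and uses no measured value, and the family was picked with earlier results of these data known. Hdac10 was counted with the other deacetylases. In every comparison all 10 reached the minimum of 10 summed counts that a gene needed to be tested.

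RNA of 2 brain regions, hippocampus and frontal cortex, was sequenced from germ-free wild-type Swiss Webster mice in 4 groups of 10 libraries. Mice of the pre-KD groups had been colonized with stool that children with refractory epilepsy gave before a clinical ketogenic diet (KD), and mice of the post-KD groups with stool of the same 10 donors on the diet. The recipients, described as female, were colonized at 6 to 8 weeks of age, ate a standard control chow in every group and gave tissue on day 4. Each library pooled 6 mice, so the spread between mice of a pool cannot be seen, and no mouse here ate the ketogenic diet. The comparisons ask whether the transferred post-KD microbiota went with other deacetylase transcript levels in either region, and how the regions differed.

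The family is divided into classes. Class I enzymes (Hdac1, Hdac2, Hdac3 and Hdac8) are mostly nuclear, and Hdac1, Hdac2 and Hdac3 act as the catalytic subunits of large corepressor complexes: SIN3, NuRD and CoREST for Hdac1 and Hdac2, NCoR and SMRT for Hdac3. Class IIa enzymes (Hdac4, Hdac5, Hdac7 and Hdac9) have little deacetylase activity of their own, bind MEF2 transcription factors and leave the nucleus when kinases phosphorylate them, which in neurons couples them to activity. Hdac6 (class IIb) is a cytoplasmic enzyme that deacetylates tubulin, and Hdac11 is the only class IV enzyme. The short-chain fatty acid butyrate, a bacterial fermentation product, and the ketone body beta-hydroxybutyrate are known inhibitors of class I enzymes, acting on the enzymes' activity, which transcript counts do not measure.

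The boundary between class IIa and the other classes can be read at a single codon of the coding sequences. In class I, IIb and IV enzymes a catalytic tyrosine stabilizes the reaction intermediate, and in class IIa enzymes a histidine takes its place. The stretches below are 30 coding bases of the mm10 genome with GENCODE M21 gene models, 5′ to 3′ on the coding strand, with the codon of this residue in capitals; they are shown because this codon separates class IIa members from the others, and Hdac3 is named only.
Hdac1: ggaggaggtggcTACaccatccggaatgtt
Hdac2: ggtggaggaggcTACacaatccggaatgtt
Hdac8: ggaggaggaggcTATaaccttgccaacacg
Hdac6, first catalytic domain: ctggagggtggcTATaacctccgtgccctg
Hdac6, second catalytic domain: ctagagggtggaTACaatttggcatctatc
Hdac11: acctcgggtgggTACcagaagcgcacagcc
Hdac4: cttgagggaggcCATgacctgacagccatc
Hdac5: ctggagggaggcCATgacttgaccgccatc
Hdac7: ttagagggtggaCATgacctcacggccatc
Hdac9: ctggaaggaggaCATgatctgacagctatt
The 4 class IIa genes carry the histidine codon CAT and the other stretches carry a tyrosine codon, TAC or TAT. Each stretch was located by a residue motif of its class that ends at this codon. Histidine or tyrosine there was thus required by the search, and the matches below include the bases of the motif. The class IIa genes matched each other at 21 to 27 of 30 bases, Hdac1 matched Hdac2 at 27, and Hdac8 matched Hdac1 at 18 and Hdac2 at 17. The Hdac6 domains matched each other at 17, fewer than the 20 at which the first of them matched Hdac4, Hdac5 and Hdac7. The codon is number 303 of Hdac1 (exon 9 of 14, chr4:129518886-129518915, minus strand), 304 of Hdac2 (exon 9 of 14, chr10:36997045-36997074, plus strand), 304 of Hdac11 (exon 10 of 10, chr6:91173118-91173147, plus strand), 968 of Hdac4 (exon 23 of 26, chr1:91945945-91945974, minus strand), 1017 of Hdac5 (exon 26 of 29, chr11:102196584-102196613, minus strand), 845 of Hdac7 (exon 22 of 25, chr15:97796143-97796172, minus strand) and 957 of Hdac9 (exon 22 of 25, chr12:34107263-34107292, minus strand). The stretches of Hdac6 (codons 385 and 781, minus strand of chromosome X) and of Hdac8 (codon 306, minus strand of chromosome X) cross an exon junction. Besides Hdac5, given in full with its result, the files list the members as ENSMUSG00000028800 (Hdac1, chromosome 4), ENSMUSG00000019777 (Hdac2, chromosome 10), ENSMUSG00000024454 (Hdac3), ENSMUSG00000026313 (Hdac4, chromosome 1), ENSMUSG00000031161 (Hdac6, chromosome X), ENSMUSG00000022475 (Hdac7, chromosome 15), ENSMUSG00000067567 (Hdac8, chromosome X), ENSMUSG00000004698 (Hdac9, chromosome 12) and ENSMUSG00000034245 (Hdac11, chromosome 6). In the transcripts used, the predicted proteins ran from 347 residues for Hdac11 to 1149 for Hdac6, and the class IIa proteins from 953 (Hdac7) to 1121 (Hdac5).

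The libraries held 1140756 to 2095352 counts. Levels below are CPM, counts scaled to the size of the library, after TMM normalization over all 40 libraries. The 8 libraries of the recipients of donors 9 and 10, in both regions and both conditions, held 77.9 to 179 CPM of the 4 mouse Y-linked genes Ddx3y, Uty, Eif2s3y and Kdm5d together and 3.36 to 27.2 CPM of mouse Xist, against 0 to 15.9 and 446 to 727 CPM in the other 32, although the methods give all recipients as female. These cohorts are balanced over pre-KD and post-KD, and results that depend on them are given with and without them. The regional labels were checked against marker genes: the 4 hippocampal markers Prox1, Zbtb20, C1ql2 and Dsp were all higher in the hippocampus at an adjusted p under 0.05, their summed level being 712 to 1238 CPM there and 406 to 754 CPM in the frontal cortex. The 7 cortical markers summed to 192 to 441 CPM in hippocampal and 284 to 514 CPM in frontal cortical libraries; 2 of them, Foxp2 and Rorb, were lower in the hippocampus at an adjusted p under 0.05, and 1, Fezf2, went against the label and was higher there. The frontal cortex libraries also held striatal transcripts (6 markers, 447 to 928 CPM against 32.6 to 263 in the hippocampus, the receptor gene Drd2 with 5 counts in all libraries together), and the hippocampal libraries choroid plexus transcripts (4 markers, 459 to 4290 CPM against 1.05 to 587).

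Per length, Hdac11 had the highest mean transcript level of the family and Hdac9 the lowest. Hdac11 averaged 19.1 ± 7.16 CPM per kilobase of exon (SD, n = 40 libraries), Hdac2 11 ± 5.04, Hdac5 9.05 ± 2.89 and Hdac4 5.56 ± 1.77. The remaining members lay at 3.93 ± 2.20 (Hdac7), 3.30 ± 1.92 (Hdac3), 3.28 ± 2.15 (Hdac6), 2.86 ± 3.27 (Hdac1), 1.67 ± 1.74 (Hdac8) and 1.05 ± 0.796 (Hdac9) CPM per kilobase. Hdac11 exceeded Hdac2 in 30 of 40 libraries and Hdac5 exceeded Hdac4 in 36 of 40, so these steps were mostly kept from library to library. Hdac2 exceeded Hdac5 in 27 of 40, but in only 5 of 10 post-KD hippocampal libraries. Further down, Hdac4 exceeded Hdac7 in 29 of 40 libraries, Hdac7 exceeded Hdac3 in 24 and Hdac3 exceeded Hdac6 in 20. Hdac6 exceeded Hdac1 in 27 of 40, Hdac1 exceeded Hdac8 in 22 and Hdac8 exceeded Hdac9 in 24. Apart from Hdac11 with Hdac2 and Hdac5 with Hdac4, the means of neighbours differed by less than 1 SD. Each of the top 5 kept its place when the level was taken per kilobase of the longest annotated transcript (Hdac11 27.7, Hdac2 15.1, Hdac5 14.7, Hdac4 10.9 and Hdac7 5.13 CPM per kilobase). These orders assume reads along the whole transcript: the library protocol names a TruSeq RNA kit, but the study's resource table also lists a kit that reads transcript ends, and by CPM with no length correction Hdac4 came first (88.0 ± 28.0 CPM), then Hdac5 (79.5 ± 25.3) and Hdac11 (73.5 ± 27.6), with Hdac9 7th (15.3 ± 11.7) and Hdac8 last (8.07 ± 8.41).

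**Figure D1:**
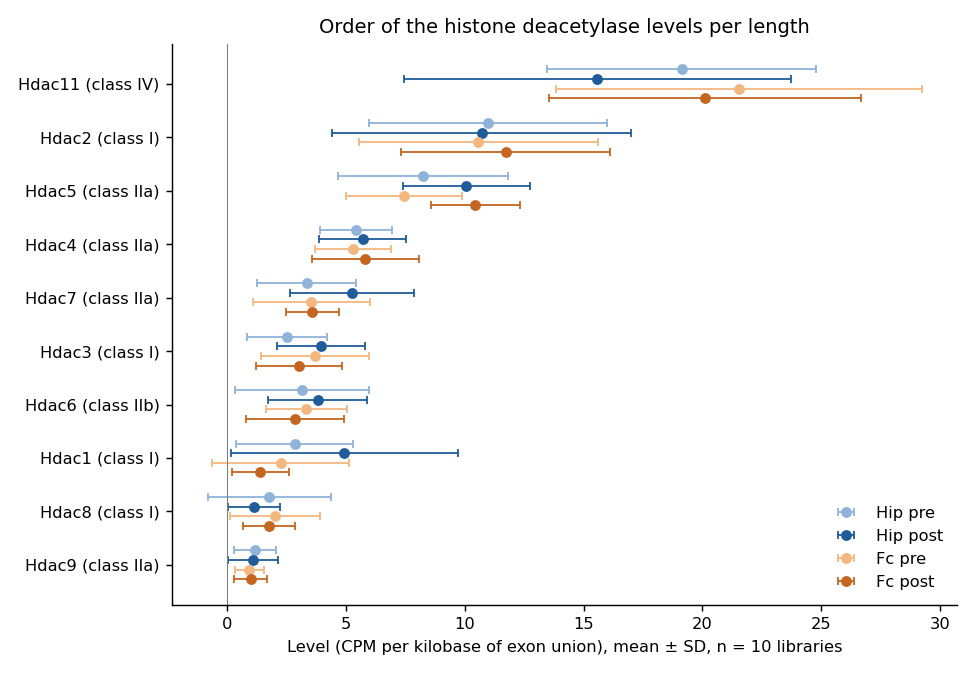
Transcript level of each histone deacetylase in CPM per kilobase of the union of its exons (horizontal axis); points are the mean of 10 libraries and bars 1 SD, for hippocampus (Hip) and frontal cortex (Fc), pre-KD and post-KD. Hdac11 lies highest and Hdac9 lowest in each of the 4 groups, and the bars of neighbouring genes overlap except those of Hdac5 and Hdac4 in the post-KD frontal cortex.

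By class, on the same scale, class I transcripts summed to 17.9 to 20.7 CPM per kilobase over the 4 group means, class IIa to 17.2 to 22.1, the class IV gene to 15.6 to 21.5 and the class IIb gene to 2.86 to 3.80. The class I sum was carried by Hdac2, and that of class IIa by Hdac5 and Hdac4. Class IIb here is Hdac6 alone, as Hdac10 is in none of the class sums. Without length correction class IIa lay above the others and class IIb below, while class I and class IV overlapped: class IIa summed to 187 to 230 CPM over the 4 group means, class I to 77.7 to 86.5, class IV to 60.0 to 82.9 and class IIb to 16.7 to 22.1. On that scale the 10 transcripts together took 368 ± 46.1 CPM in the pre-KD hippocampus, 399 ± 56.3 in the post-KD hippocampus, 369 ± 71.7 in the pre-KD frontal cortex and 395 ± 51.2 in the post-KD frontal cortex (SD, n = 10 each). These group sums overlapped, with single libraries between 246 and 498 CPM.

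The less abundant members varied more between libraries than counting error allows, and so did the abundant ones. Hdac1, the deacetylase of SIN3, NuRD and CoREST, ranged from 0 to 69 counts per library, Hdac8, an X-linked class I enzyme, from 0 to 66, and Hdac6, the X-linked tubulin deacetylase, from 0 to 80. No count of Hdac8 was found in 5 of 40 libraries, of Hdac6 in 3, of Hdac1 in 2 and of Hdac3 in 1. The coefficient of variation over the 40 libraries fell from 114% for Hdac1 and 104% for Hdac8 to 31.9% for Hdac5 and 31.8% for Hdac4. Relative to counting error alone this spread was 2.71 to 4.47 times larger, with a median of 3.75 times over the 10 members, beside a median of 3.73 times over the 7716 genes whose mean count lay in the same range of 13.4 to 142. The members thus spread as genes of like abundance in these libraries do, and the technical and biological parts of that spread cannot be told apart here.

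**Figure D2:**
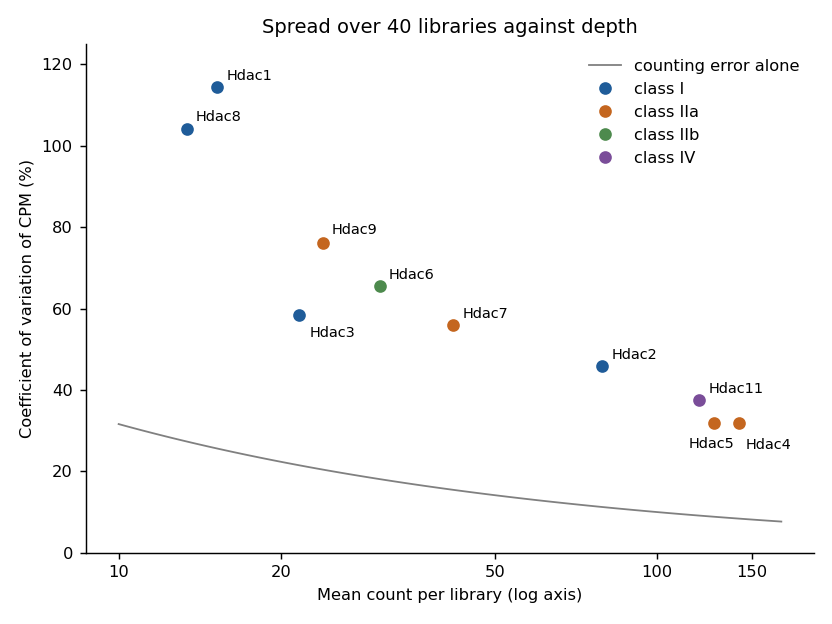
Coefficient of variation of CPM over the 40 libraries (vertical axis, percent) against mean count per library (horizontal log axis) for the 10 histone deacetylases, coloured by class; the grey line is the variation that counting error alone would give. Every member lies above the line, from Hdac1 at 114% to Hdac4 at 31.8%.

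In the hippocampus, no histone deacetylase differed between post-KD and pre-KD recipients beyond the spread between libraries. With edgeR's quasi-likelihood test 0 of 10 members passed an adjusted p of 0.05, beside 0.0057% of the 17529 genes tested, and 0 of 10 an unadjusted p of 0.05, beside 10.1% of all genes. DESeq2 and limma-voom also called 0 of 10 at either threshold. The log2 fold changes ran from -0.63 to 0.79 with 6 above and 4 below 0 and a median of 0.18, beside a median of -0.01 over all genes tested. Of the marker lists in this comparison, the 5 striatal markers tested had fold changes below 0 (median -0.60 on the log2 scale; summed level of the 6 listed 59.5 to 263 CPM pre-KD and 32.6 to 145 CPM post-KD). Ppp1r1b among them (p = 0.0322) and the hippocampal marker Prox1 (p = 0.0256) were lower at an edgeR unadjusted p under 0.05, and the oligodendrocyte marker Mog (p = 0.0410) was higher. None passed an adjusted p of 0.05. Of the 4 hippocampal markers 2 had fold changes above 0 and 2 below (median 0.14 on the log2 scale). Of the 6 oligodendrocyte markers 2 lay above 0 and 4 below (median -0.11). The part of all these markers in the members' values was not tested.

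Of the class I genes in the hippocampus, Hdac2, the most abundant, was at 8.10, 45.3 and 88.3 CPM (lowest, median and highest of 10 libraries) pre-KD and at 4.81, 36.2 and 89.9 CPM post-KD. The ranges lay over each other, and the log2 difference was -0.03 (95% interval -0.72 to 0.66, edgeR adjusted p = 1.0). Hdac1 averaged 9.79 ± 8.46 CPM pre-KD and 17 ± 16.5 post-KD, a log2 difference of 0.79 (-0.71 to 2.30, edgeR adjusted p = 0.998; -0.34 with limma-voom), with 6 of 10 donors higher post-KD. Hdac3, the NCoR and SMRT enzyme, averaged 10.2 ± 6.86 and 16 ± 7.47 CPM and was higher in 8 of 10 donors, yet its interval ran from -0.79 to 2.07. Hdac8 averaged 8.57 ± 12.5 and 5.50 ± 5.28 CPM, and its pre-KD mean rested on the donor 9 library at 42.1 CPM: the log2 difference was -0.63 with the donor 9 and 10 cohorts and 0.12 without them.

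Of the class IIa genes in the hippocampus, Hdac7, known for its role in endothelium, had the smallest p of the family. Its levels were 0.638, 23.7 and 49.7 CPM pre-KD and 12.4, 35.86 and 76.2 CPM post-KD, with 8 of 10 donors higher post-KD and wide overlap. The log2 difference was 0.65 ± 0.46 (SE; 95% interval -0.26 to 1.56, unadjusted p = 0.162, edgeR adjusted p = 0.870), and 0.44 without the donor 9 and 10 cohorts, whose pre-KD donor 9 library held the 0.638 CPM. Hdac4 averaged 85.8 ± 23.9 CPM pre-KD and 90.2 ± 29.0 post-KD. It was the most tightly measured member, with an interval that spans a fold change of 0.759 to 1.46. Hdac5, an activity-regulated repressor of MEF2 targets, averaged 72.4 ± 31.3 and 88.4 ± 23.4 CPM (log2 difference 0.29, -0.22 to 0.80, 6 of 10 donors higher). Hdac9 was at 17.3 ± 12.9 and 15.9 ± 15.2 CPM.

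Outside these classes, hippocampal Hdac11 was at 42.7, 67.4 and 111 CPM pre-KD and at 29.8, 49.9 and 129 CPM post-KD, higher post-KD in 3 of 10 donors. The difference of -0.30 on the log2 scale (-0.85 to 0.26, unadjusted p = 0.294) did not pass the test. Hdac6 averaged 18.3 ± 16.5 and 22.1 ± 12 CPM with 0 counts in 3 of the 20 hippocampal libraries.

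**Figure D3:**
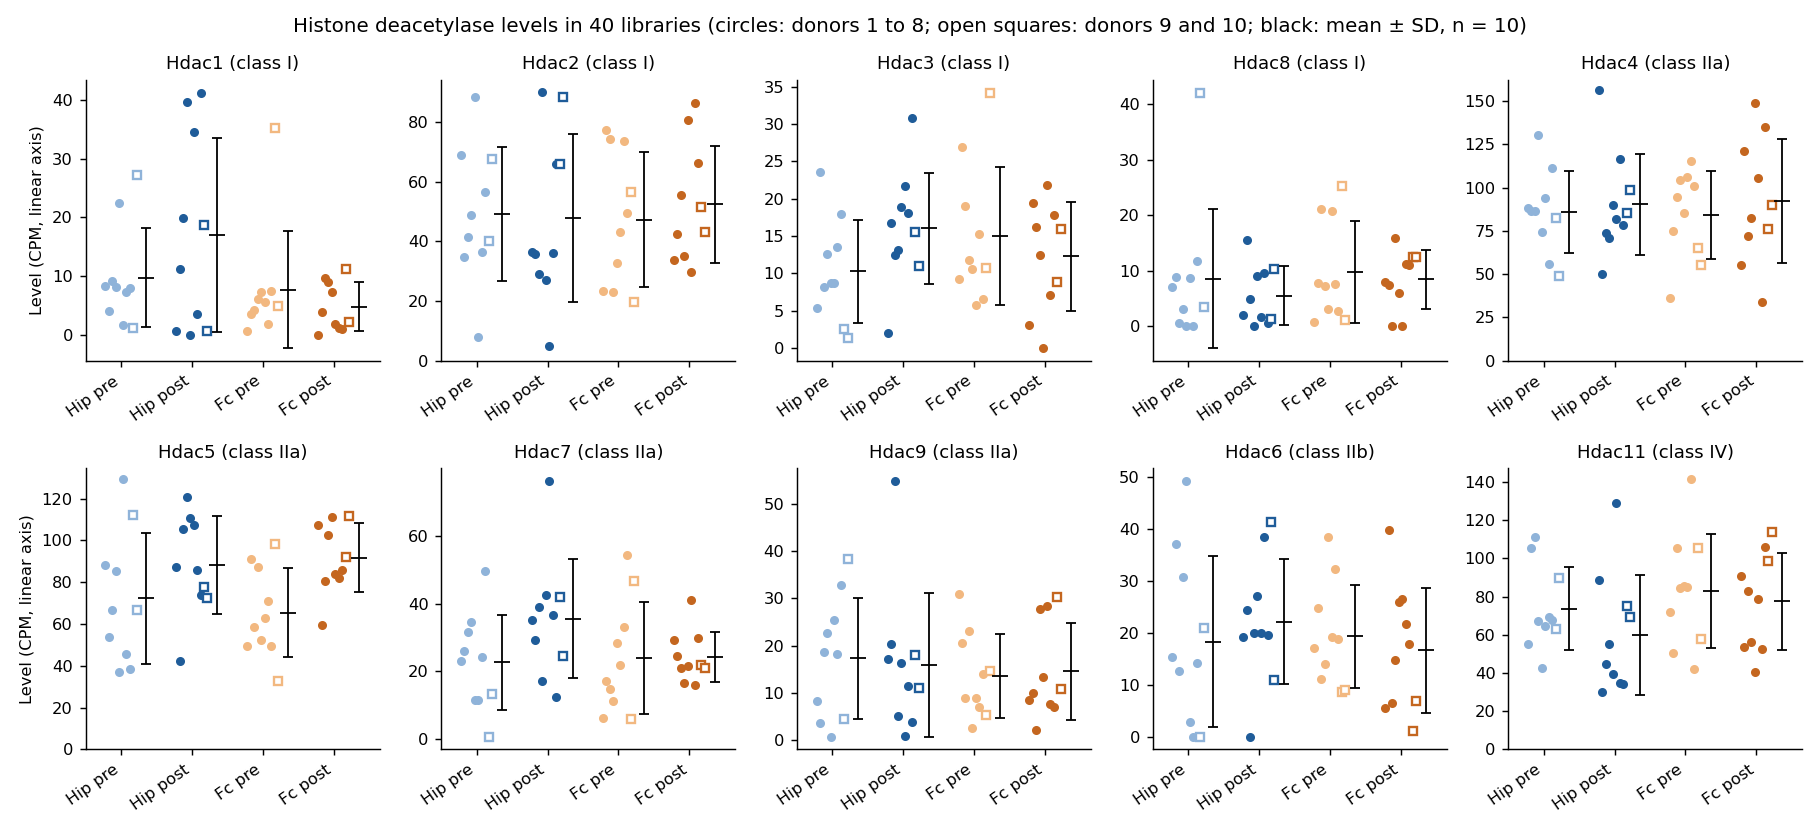
CPM (vertical linear axes, 1 panel per gene) of the 10 histone deacetylases in every library of the pre-KD and post-KD hippocampus (Hip) and frontal cortex (Fc); circles are recipients of donors 1 to 8, open squares those of donors 9 and 10, and black marks the mean ± SD of 10 libraries. Pre-KD and post-KD points overlap in every panel, and single libraries stand far above the rest for Hdac1, Hdac8, Hdac7 and Hdac9.

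In the frontal cortex 1 of 10 members, Hdac5, passed an unadjusted p of 0.05, beside 9.68% of the 17873 genes tested, and 0 of 10 passed an adjusted p of 0.05, beside 0.0056% of all genes. A count of 1 in 10 lies close to the share among all genes in this edgeR fit. DESeq2 and limma-voom gave the same counts of members, beside 825 and 1071 of the 17873 genes at an unadjusted p under 0.05. With filterByExpr, under which Hdac5 was also below that threshold, 407 of 10033 genes were. The share among all genes thus depends on the setting. The members' log2 fold changes ran from -0.68 to 0.49 with 5 above and 5 below 0 and a median of -0.04, beside 0.01 over all genes.

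Hdac5 (ENSMUSG00000008855, chr11:102194432-102230166, minus strand), the class IIa enzyme whose active-site stretch with its histidine codon is printed above, was at 32.5, 60.8 and 98.5 CPM (lowest, median and highest of 10 libraries) in the pre-KD frontal cortex and at 59.7, 88.9 and 112 CPM in the post-KD frontal cortex. The post-KD libraries lay higher but the groups overlapped: 8 of 10 donors were higher post-KD, and the recipients of donors 2 and 9 were lower. Means were 65.3 ± 21.3 and 91.7 ± 16.5 CPM (SD, n = 10 each), a fold change of 1.4 (log2 0.49 ± 0.19 SE, 95% interval 0.11 to 0.87). Its unadjusted p was 0.0128 and its edgeR adjusted p 0.219, so Hdac5 failed the correction over all genes. The unadjusted p was 0.0055 with DESeq2 and 0.0073 with limma-voom, 0.0117 with the donor as a block, 0.0331 without the donor 9 and 10 cohorts, and 0.0584 without donor 10, whose pre-KD library was the lowest and whose post-KD library was the highest. In the hippocampus of the same cohorts the log2 difference of Hdac5 was 0.29, and the difference between the regions in this change, fitted over all 40 libraries with the cohort as a block, was -0.18 (95% interval -0.86 to 0.50, edgeR adjusted p = 1.0).

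**Figure D4:**
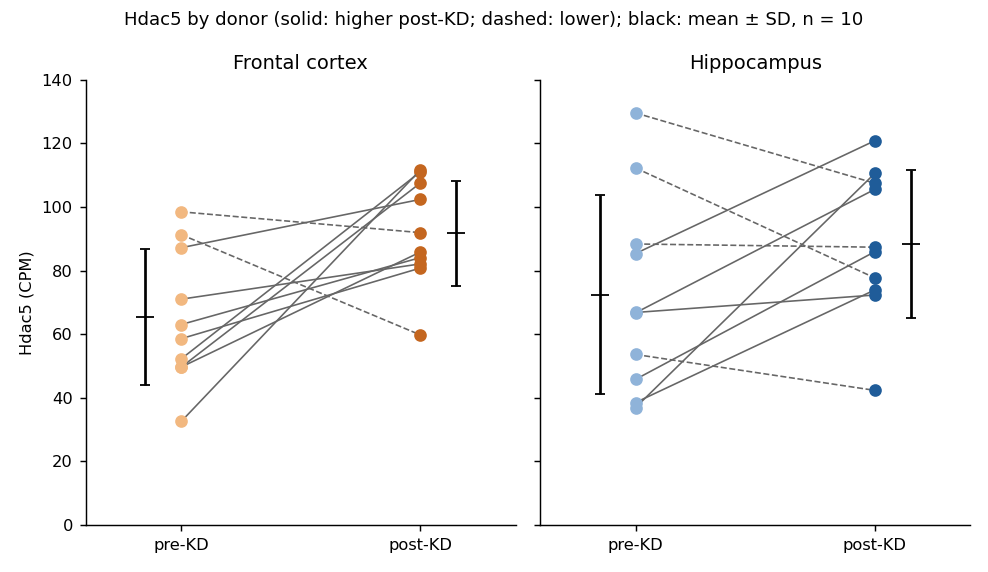
Hdac5 in CPM (vertical axis, from 0) in the pre-KD and post-KD library of each of the 10 donors' recipients, joined by lines (solid where higher post-KD, dashed where lower), for frontal cortex (left) and hippocampus (right); black marks the mean ± SD of 10 libraries. Solid lines are 8 of 10 in the frontal cortex and 6 of 10 in the hippocampus.

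Some markers of cell types and tissues differed at an unadjusted p under 0.05 in the frontal cortical comparison in which Hdac5 did, while others of the same lists had fold changes of the opposite sign. The summed level of the 4 blood markers was 384 to 1151 CPM pre-KD and 546 to 1381 CPM post-KD, with Hba-a1 (log2 0.49, unadjusted p = 0.0016) and Hbb-bs (0.41, 0.0069) at an unadjusted p under 0.05 and Hba-a2 at 0 counts in all libraries; of the 3 blood markers tested 2 had fold changes above 0 and 1 below. The summed level of the 6 striatal markers was 447 to 928 CPM pre-KD and 617 to 927 CPM post-KD, with 1 of 5 tested, Penk (0.28, 0.0349), at an unadjusted p under 0.05, and 3 of the 5 had fold changes above 0 and 2 below, with a median of 0.061 on the log2 scale. Of the 7 cortical markers Scnn1a (means 0.837 and 4.91 CPM) was higher post-KD at an unadjusted p of 0.0379, and 5 had fold changes above 0 and 2 below. None of these markers passed an adjusted p of 0.05. Their part in the Hdac5 values was not tested. In bulk tissue fewer cells of a type and less RNA per cell cannot be told apart.

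The other frontal cortical members gave intervals across 0. Hdac4 averaged 83.9 ± 25.4 CPM pre-KD and 92.0 ± 35.8 post-KD, with an interval that spans a fold change of 0.830 to 1.44. Hdac11 averaged 82.9 ± 29.6 and 77.5 ± 25.3 CPM, a fold change of 0.934 (0.707 to 1.23). Hdac2 averaged 47.3 ± 22.5 and 52.4 ± 19.7 CPM, a fold change of 1.11 (0.781 to 1.57). Hdac7 was at 23.9 ± 16.6 and 24.2 ± 7.48 CPM, and Hdac9 at 13.6 ± 8.93 and 14.6 ± 10.3 CPM. For Hdac1, Hdac3, Hdac8 and Hdac6 the post-KD means were lower (4.8 against 7.75, 12.3 against 15, 8.44 against 9.78 and 16.7 against 19.3 CPM), each with an unadjusted p of 0.387 or above. The pre-KD mean of Hdac1 rested on the donor 9 library at 35.3 CPM, the next highest standing at 7.49 CPM, and without the donor 9 and 10 cohorts the log2 difference of Hdac1 moved from -0.68 to -0.12.

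Between the regions no histone deacetylase passed an adjusted p of 0.05 in the fit with the cohort as a block, beside 2.85% of the 19422 genes tested, and 0 of 10 passed an unadjusted p of 0.05, beside 10.9%. DESeq2 gave 0 of 10 and 1 of 10 (Hdac1, unadjusted p = 0.0225) and limma-voom 0 of 10 at both thresholds. In this fit the median of all genes stood at -0.17 on the log2 scale, against -0.003 with limma-voom, so each member is also given relative to that median. Hdac1 averaged 13.4 ± 13.3 CPM in hippocampal and 6.28 ± 7.55 CPM in frontal cortical libraries (n = 20 each), higher in the hippocampus in 16 of 20 cohorts: the log2 difference was 1.02 (95% interval -0.15 to 2.18, edgeR adjusted p = 0.664), 1.19 relative to the median. Hdac11 averaged 66.8 ± 27.1 and 80.2 ± 27 CPM and was higher in the hippocampus in 5 of 20 cohorts, at -0.30 on the log2 scale (-0.65 to 0.06, edgeR adjusted p = 0.625), -0.13 relative to the median. Of the class IIa genes, Hdac4 was at 88.0 CPM in both regions and its interval spans a fold change of 0.819 to 1.27, and Hdac5 was at 80.4 and 78.5 CPM with an interval of 0.795 to 1.27. Hdac7 was at 29.1 CPM in hippocampal and 24.1 CPM in frontal cortical libraries, and Hdac9 at 16.6 and 14.1 CPM. Hdac2 was at 48.5 and 49.9 CPM (0.667 to 1.22). Hdac3, Hdac8, Hdac7, Hdac9 and Hdac6 had intervals from at most 0.725 to at least 1.56 in fold change. None of these intervals is shifted by the median of all genes. Relative to that median the log2 differences were 0.02 (Hdac2), 0.12 (Hdac3), -0.45 (Hdac8), 0.20 (Hdac4), 0.17 (Hdac5), 0.35 (Hdac7), 0.20 (Hdac9) and 0.08 (Hdac6).

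The post-KD change did not differ detectably between the regions for any member. In the test of the region by diet term 0 of 10 passed an adjusted p of 0.05, beside 0.0154% of 19422 genes, and 0 of 10 an unadjusted p of 0.05, beside 2.22%; DESeq2 and limma-voom also gave 0 of 10. This term comes from the fit over all 40 libraries with the cohort as a block, so it is not the arithmetic difference of the changes fitted within each region. In that fit the estimates furthest from 0 were those of Hdac3 (1.05, 95% interval -0.88 to 2.99), Hdac6 (0.99, -0.59 to 2.57) and Hdac1 (0.78, -1.55 to 3.11). With each donor left out in turn, Hdac3 ran from 0.77 to 1.25, Hdac6 from 0.33 (without donor 9) to 1.39 and Hdac1 from 0.17 (without donor 6) to 1.35. Fitted within each region, Hdac1 had the changes furthest apart, 0.79 in hippocampal and -0.68 in frontal cortical libraries, beside 0.64 and -0.29 for Hdac3 and 0.28 and -0.22 for Hdac6. All these intervals cross 0.

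**Figure D5:**
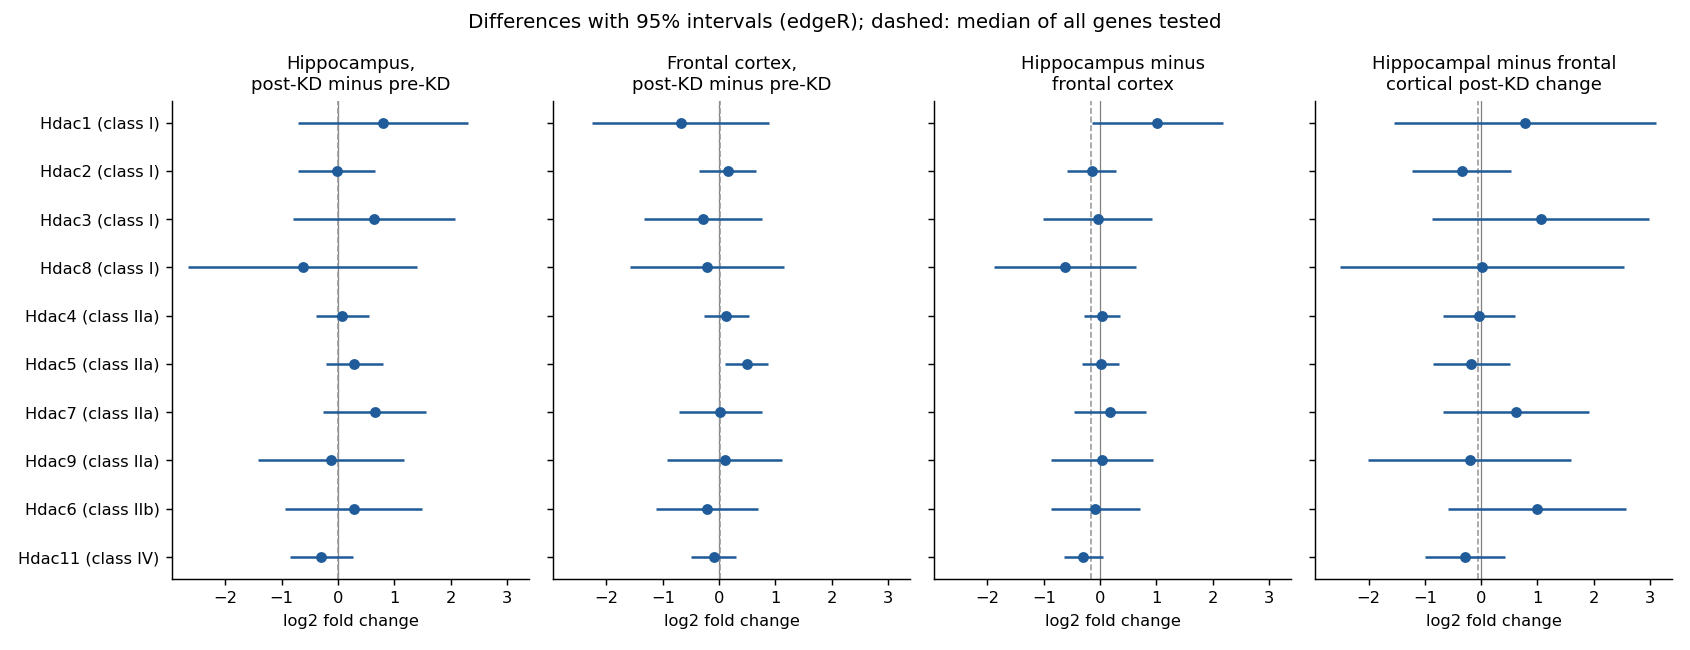
Log2 fold change (horizontal axes) of the 10 histone deacetylases in 4 comparisons, with 95% intervals (bars) from edgeR's quasi-likelihood fits and the median of all genes tested (dashed). All intervals include 0 except that of Hdac5 in the frontal cortex (0.11 to 0.87), whose adjusted p was 0.219.

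The X-linked members Hdac6 and Hdac8 are given apart for the 8 libraries with Y-linked counts, a split made after the values were seen and so described without a test. Hdac6 stood at 1.19 to 8.97 CPM in the 4 frontal cortical libraries of donors 9 and 10 and at 5.53 to 39.8 CPM in the other 16, and at 0 to 41.4 and 0 to 49.2 CPM in the hippocampus. Hdac8 stood at 1.12 to 25.3 and 0 to 21.1 CPM in the frontal cortex, and at 1.29 to 42.1 and 0 to 15.5 CPM in the hippocampus. With these libraries left out, 0 of 10 members passed an adjusted p of 0.05 in any of the 4 comparisons, and Hdac5 in the frontal cortex was again the only member under an unadjusted p of 0.05.

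Of the transcripts of the complexes and regulators around the deacetylases, no gene passed an adjusted p of 0.05 in either post-KD comparison. In the hippocampus 2 of 14 SIN3 subunit genes passed an unadjusted p of 0.05, Suds3 (103 ± 44.4 CPM pre-KD, 65.2 ± 28.0 post-KD, p = 0.0174) and Ing1 (118 ± 20.3 and 83.0 ± 30.6 CPM, p = 0.0252), both lower post-KD, and 1 of 8 CoREST genes, Zmym2 (40.8 ± 20.1 and 68.9 ± 33.0 CPM, p = 0.0192). The NuRD (10 genes), NCoR (5 genes), acetyltransferase (12 genes), butyrate-responsive (8 genes), class IIa partner (19 of 20 genes tested) and other deacetylase lists (8 genes: Hdac10 and Sirt1 to Sirt7) had none there. In the frontal cortex Sirt7, an NAD-dependent deacetylase (42.5 ± 10.2 and 26.1 ± 10.2 CPM, p = 0.0149), Chd3, a NuRD helicase (640 ± 95.2 and 558 ± 67.3 CPM, p = 0.0456), and Camk2a, a kinase that signals to class IIa enzymes (3316 ± 517 and 2887 ± 306 CPM, p = 0.0082), were each lower post-KD at an unadjusted p under 0.05, and 0 of 8 butyrate-responsive genes, 0 of 12 acetyltransferase genes, 0 of 14 SIN3, 0 of 8 CoREST and 0 of 5 NCoR genes were. The shares of all genes under that threshold were 10.1% and 9.68%, and with 5 to 19 genes tested per list a count of 1 or 2 is not read as a result about the list. The 6 genes are named because of their values. Over both post-KD comparisons the medians of these lists lay between -0.15 and 0.17 on the log2 scale.

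Between the regions 5 genes of 3 partner and target lists passed an adjusted p of 0.05, beside 2.85% of all genes tested. Mef2c, one of the MEF2 factors that class IIa enzymes bind, averaged 602 ± 146 CPM in hippocampal and 893 ± 97.1 CPM in frontal cortical libraries (n = 20 each). Its log2 difference was -0.60 ± 0.07 (SE, edgeR adjusted p = 4.2e-15). Camk4, a kinase that drives class IIa enzymes out of the nucleus, averaged 190 ± 35.3 and 267 ± 44.7 CPM (-0.49 ± 0.11, edgeR adjusted p = 0.00033). These were 2 of 19 class IIa partner genes called, both lower in the hippocampus. Chd4, the NuRD helicase that works with Hdac1 and Hdac2, averaged 242 ± 64.2 and 308 ± 49.4 CPM (-0.38 ± 0.10, edgeR adjusted p = 0.0074) and was the only one called of 10 NuRD genes. Of 8 genes known to respond to butyrate, Mt2, a metallothionein, was higher in the hippocampus (335 ± 99 and 238 ± 40.4 CPM, edgeR adjusted p = 0.00027) and Cdkn1a, the cell cycle inhibitor p21, lower (23.4 ± 16.4 and 45.1 ± 19.5 CPM, edgeR adjusted p = 0.017). The single-library ranges of all 5 genes overlapped between the regions, and none was called among 14 SIN3, 8 CoREST, 5 NCoR, 12 acetyltransferase and 8 other deacetylase genes. The 3 neuronal markers Rbfox3, Snap25 and Syt1 summed to 3053 to 3845 CPM in the hippocampus and 3279 to 4223 CPM in the frontal cortex, and with the striatal and choroid plexus transcripts above they differed between the same libraries; their part in these 5 results was not tested.

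Members did not move together from library to library. After the mean of each group was removed, Pearson's r of log2(CPM + 1) over the 40 libraries lay between -0.35 (Hdac5 with Hdac7) and 0.31 (Hdac7 with Hdac6) over the 45 pairs, with a median of -0.001. The libraries share depth and scaling, so these values are a description. Among 6457 other genes averaging 20 CPM or more, the one most like Hdac7 was Wscd1 (r = 0.74), most like Hdac4 Pcsk1n (0.69), most like Hdac2 Anxa6 (0.68), most like Hdac5 Slc16a6 (0.55) and most like Hdac11 Tmem38a (0.53), each the highest of 6457 values over 40 libraries.

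Some members overlap annotated neighbours over the span from gene start to gene end, introns included. Whether counted exons overlap was not tested, and whether the counting used strand is not given in the sources used here. On the opposite strand Hdac7 overlaps the protein-coding gene Slc48a1, Hdac11 the antisense transcript Gm14573, Hdac8 Gm14858 and Hdac4 Gm26720. Where exons overlap, reads of these partners cannot be told apart with certainty in an unstranded count. On the same strand Hdac5 overlaps the microRNA gene Mir8101, Hdac4 Gm37036, and Hdac9 Gm18025, Gm47357 (annotated as sense intronic) and 4921508M14Rik. There strand would not separate reads of exons that overlap.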

How the data were processed

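RNA-seq libraries of 2 brain regions were grouped from the labels by region, diet condition and donor number (40 libraries, 10 per group; 20 cohorts, each giving both regions). The authors deposited 1 table per region of unnormalized read counts for 47643 Ensembl genes. According to the methods and the submitters' processing notes, paired reads of 69 bp were checked with FastQC 0.11.5, trimmed, aligned to mm10 with STAR 2.5.2a and counted with HTSeq-count 0.6.0. The annotation release and strand setting used in counting are not given in the sources used here. Identifiers were named with GENCODE M21 (47224 matched, 419 did not). All values were whole numbers, and no pair of libraries of a group held identical values. Libraries held 1140756 to 2095352 counts. Replicates are pools of mice given stool of different donors, so p-values measure the spread between such pools.

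Testing used edgeR 4.0.16 and genes whose counts summed to at least 10 in the libraries compared (limma 3.58.1, R 4.3.3; two-sided quasi-likelihood test, TMM, Benjamini-Hochberg over all genes tested). Post-KD was compared with pre-KD within each region with no block. Regions, and the region by diet term, were compared over all 40 libraries with the cohort as a block. Thresholds of 0.05 were applied to adjusted p and, as in the study, to unadjusted p. Standard errors and 95% intervals are Wald values from the same fits. DESeq2 1.42.0, limma-voom with sample quality weights, other filters and scalings, and leaving out each donor were alternatives; leaving out donors 9 and 10 together was chosen after seeing the data. The code was tested on simulated counts.

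Same-numbered libraries come from 1 donor's stool, or from the same mice in both regions. Deviations from the group means, over 8157 genes, correlated between pre-KD and post-KD of a donor at -0.03 to 0.03 in the hippocampus and -0.05 to 0.03 in the frontal cortex, and between regions of a cohort at -0.02 to 0.20. Levels between genes are CPM per kilobase of the union of exons. The members and gene lists were chosen with earlier results of these data known, and 1 further striatal marker is not reported here. All 10 members are named; other listed genes are named at an adjusted p under 0.05, by the 3 smallest p per list between regions, or as the most alike gene of a member averaging at least 20 CPM. Beyond that rule, listed genes and markers at an unadjusted p under 0.05 in a post-KD comparison were also named, after their values were seen.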

Additional observations from a re-analysis of the deposited data

Results flagged for a closer look

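In 4 of 40 sets of 10 libraries (10 members in 4 groups) a highest library stood apart from the next by more than Dixon's 95% critical value. For normally distributed values chance gives this in about 1 of 20, and the rate for CPM of low counts was not tested. Hdac1 stood at 35.3 CPM (53 counts) in the pre-KD frontal cortex of donor 9's recipients, with the next library at 7.49 CPM. Hdac8 stood at 42.1 CPM (66 counts) in the pre-KD hippocampus of donor 9's recipients, with the next at 11.8 CPM. Hdac7 reached 76.2 CPM in the post-KD hippocampus of donor 6's recipients, with the next at 42.6 CPM. Hdac9 reached 54.8 CPM in the post-KD hippocampus of donor 3's recipients, with the next at 20.3 CPM.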

How the results depend on the processing

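No histone deacetylase passed an adjusted p of 0.05 under any alternative in any of the 4 comparisons. Hdac5 in the frontal cortex was under an unadjusted p of 0.05 in all alternatives except without donor 10 (count of members 0 to 1 over leaving out each donor; p = 0.0032 to 0.0584, log2 0.37 to 0.60), and Hdac1 between the regions only with DESeq2 (1 member). Counts over all genes moved more, and the cause was not tested. Genes at an adjusted p under 0.05 in the hippocampus were 1, and 0 with DESeq2, filterByExpr or the replicate block, 1291 with no gene filter, and 0 to 1 when leaving out each donor; in the frontal cortex they were 1, and 2 with DESeq2, 3 with limma-voom and 3 with the replicate block. Between the regions they were 554, and 1033 with DESeq2, 1935 without the cohort block, 193 in pre-KD and 251 in post-KD cohorts. For the difference in change they were 3, and 0 with DESeq2 or filterByExpr, 1 with limma-voom, 348 without the cohort block and 2 to 4 when leaving out each donor. Genes at an unadjusted p under 0.05 in the hippocampus were 599 with DESeq2, 2931 with no filter, 221 with filterByExpr, 962 with limma-voom and 348 with the donor block; in the frontal cortex 825, 3035, 407, 1071 and 548. Between the regions they were 3475 without the block, 1208 in pre-KD and 1401 in post-KD cohorts, and for the difference in change 949 with DESeq2, 664 with limma-voom and 1767 without the block. The block of the paired donors or cohorts changed no call on a member. Calls in the hippocampus were 801 higher and 961 lower at unadjusted p, and 286 and 676 with limma-voom, 106 and 242 with the block and 678 and 1087 without donors 9 and 10; between the regions 539 and 1578, and 826 and 1211 with limma-voom and 1474 and 2001 without the block. By CPM with no length correction 1 of 10 members held its place in the order of levels, and 8 of 10 per longest transcript.

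Some differences with intervals across 0 changed sign. With limma-voom these were Hdac1 (-0.34) and Hdac4 (-0.033) in the hippocampus, Hdac3 (0.023) and Hdac6 (0.11) between the regions and Hdac2 (0.028) in the difference in change. Without donors 9 and 10 they were Hdac8 (0.12) and Hdac4 (-0.015) in the hippocampus, Hdac9 (-0.14) in the frontal cortex, Hdac3 (0.22), Hdac4 (-0.0011) and Hdac5 (-0.017) between the regions, and Hdac5 (0.026) and Hdac9 (0.017) in the difference in change. With the donor block it was Hdac8 (0.25) in the frontal cortex, and without the cohort block Hdac6 (0.17) between the regions and Hdac8 (-0.42) in the difference. Between the regions in pre-KD cohorts Hdac2 (0.025) and Hdac7 (-0.16) turned, and in post-KD cohorts Hdac3 (0.47), Hdac5 (-0.082), Hdac9 (-0.074) and Hdac6 (0.39). Over leaving out each donor, the hippocampal change of Hdac2 ran from -0.18 to 0.17, of Hdac8 from -0.94 to 0.30, of Hdac4 from -0.039 to 0.19, of Hdac9 from -0.56 to 0.15 and of Hdac6 from -0.020 to 0.54; the frontal cortical change of Hdac8 from -0.43 to 0.14, of Hdac7 from -0.12 to 0.21, of Hdac9 from -0.18 to 0.39 and of Hdac11 from -0.24 to 0.065; the region difference of Hdac2 from -0.33 to 0.065, of Hdac3 from -0.21 to 0.15, of Hdac4 from -0.12 to 0.089, of Hdac5 from -0.077 to 0.078, of Hdac9 from -0.22 to 0.18 and of Hdac6 from -0.23 to 0.074; and the difference in change of Hdac8 from -0.87 to 0.76, of Hdac4 from -0.35 to 0.13 and of Hdac9 from -0.63 to 0.33.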
